A study of Mus musculus with 6 samples.

Results

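The LIF and interleukin 6 family was described here through 10 listed genes: the ligands Lif, Il6 and Il11, the receptor chains Lifr, Il6ra, Il6st, Il11ra1 and Osmr, the transcription factor Stat3 and the feedback inhibitor Socs3. A gene was measured where a probe set of the array carried its symbol and no other. That held for 9 of the 10 genes, with 23 probe sets, out of 18193 genes and 34945 such probe sets in all. Il11ra1 is not analysed here. Where a gene had several probe sets, the brightest on average over the 6 arrays stood for it.

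The samples were uterine horns of GATA2 f/f female mice without ovaries (ovariectomized uterus), 8 weeks old and of mixed background. The f/f notation by convention marks a gene flanked by recombination sites on both chromosomes. No recombinase is named in the labels, and both groups carry the same genotype. A group of 3 arrays came from mice given oil, the carrier, and a group of 3 from mice given P4, the usual abbreviation of progesterone. The labels give neither dose nor time after treatment. Nor do they state that each array is a separate animal, and the p-values therefore reflect only the spread among these 6 samples, part of which may be technical.

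Members of this cytokine family share a receptor chain, encoded by Il6st, which passes the signal into the cell. Each ligand also needs a further chain, which other ligands may share: Lifr for LIF, Il6ra for interleukin 6, Il11ra1 for interleukin 11 and Osmr for oncostatin M. Ligand binding activates Janus kinases, which phosphorylate STAT3, and STAT3 in turn induces Socs3, whose product binds the shared chain and damps the signal. In the mouse uterus LIF from the glands is required for implantation of the embryo, and STAT3 in the epithelium and interleukin 11 signalling in the decidua are required at or after that stage.

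Array medians ran from 117 to 123 intensity units. Stroma and smooth muscle markers were bright, with mean intensities of at least 1476 for all 10 stroma genes and at least 884 for all 8 smooth muscle genes. The 14 epithelial markers had a median of 665 over their values on single arrays. Their means ran from 34.0 for Prss28, a gland protease of the pregnant uterus, to 3354 for Krt18, a keratin. The arrays differed in white blood cell markers within both groups. The summed intensity of 9 granulocyte genes ran from 663 to 6652 over the oil arrays and from 653 to 9989 over the P4 arrays, and was highest on replicate 3 of each group. Values come from whole tissue, so fewer cells of a type and less RNA per cell cannot be told apart.

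After P4 the receptor chains Lifr and Il6st were lower and the ligand Il6 was higher. Lifr had the largest decrease, that of Il6st was smaller, and Il6 rose from very low intensities. Of the 9 measured members 1 rose and 2 fell at a limma adjusted p under 0.05, where 13% of all 18193 genes passed in either direction, 6.08% as higher and 6.94% as lower. That is 1106 genes higher and 1262 lower, a balance that turned to 1823 higher and 637 lower when each array was scaled to its hybridisation controls. The same 3 members were those whose P4 and oil arrays did not overlap, against 31.8% of all genes. With the replicate number as a block the counts were again 1 and 2, where 20.9% of all genes passed. The median log2 difference was 0.04 over the members and -0.01 over all genes, and the median absolute difference was 0.25 and 0.13. The 6 other members had differences on both sides of 0.

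**Figure D1:**
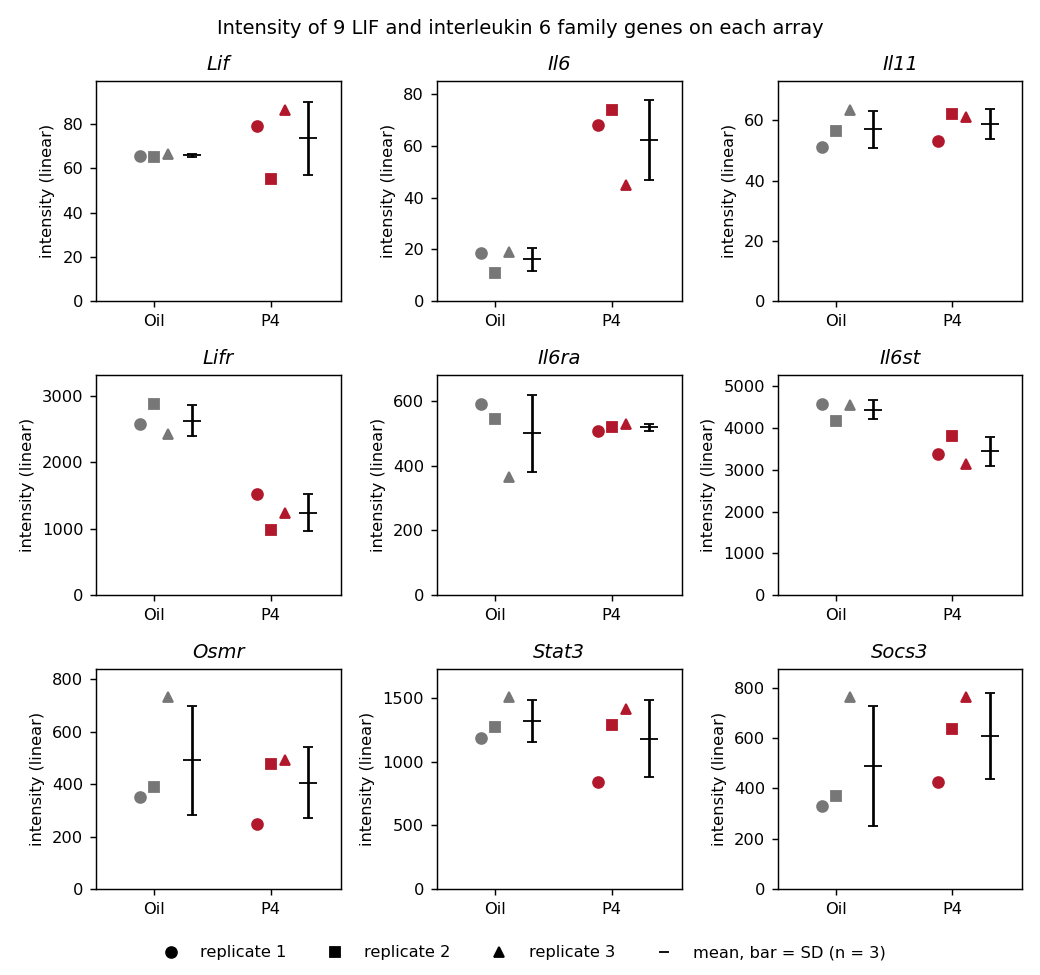
Linear intensity of the 9 measured genes (y axis from 0, a scale of its own in each panel) on the 3 oil arrays (grey) and 3 P4 arrays (red), with the mean and SD of each group. Lifr, Il6st and Il6 show no overlap between the groups, while Osmr, Stat3 and Socs3 spread within each group with replicate 3 the highest.

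The start-site regions of the members that changed most, Lifr and Il6, are shown first, with that of Socs3, the only member whose region held a STAT element. All are from RefSeq, build GRCm38.p6, and run from 250 bases before to 50 bases after an annotated start, written 5′ to 3′ on the strand of the gene. Capitals mark matches on either strand to TTCNNNGAA (the STAT element), TGTTCT (the core read by the progesterone receptor and its relatives) or GATAA (the core read by GATA factors).
Lifr, first start, chr15:7129322-7129621, plus strand: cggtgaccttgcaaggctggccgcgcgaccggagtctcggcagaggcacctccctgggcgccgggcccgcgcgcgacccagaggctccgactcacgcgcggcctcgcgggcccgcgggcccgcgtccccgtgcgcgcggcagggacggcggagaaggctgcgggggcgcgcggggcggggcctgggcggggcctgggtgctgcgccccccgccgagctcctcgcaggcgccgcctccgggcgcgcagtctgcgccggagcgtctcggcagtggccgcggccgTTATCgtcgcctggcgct
Lifr, second start, chr15:7140292-7140591, plus strand: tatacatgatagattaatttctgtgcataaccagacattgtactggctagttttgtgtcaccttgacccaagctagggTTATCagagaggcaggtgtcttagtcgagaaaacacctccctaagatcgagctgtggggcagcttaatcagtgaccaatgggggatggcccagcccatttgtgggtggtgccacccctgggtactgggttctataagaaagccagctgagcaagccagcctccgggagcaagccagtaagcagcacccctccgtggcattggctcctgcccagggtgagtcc
Il6, chr5:30012864-30013163, plus strand: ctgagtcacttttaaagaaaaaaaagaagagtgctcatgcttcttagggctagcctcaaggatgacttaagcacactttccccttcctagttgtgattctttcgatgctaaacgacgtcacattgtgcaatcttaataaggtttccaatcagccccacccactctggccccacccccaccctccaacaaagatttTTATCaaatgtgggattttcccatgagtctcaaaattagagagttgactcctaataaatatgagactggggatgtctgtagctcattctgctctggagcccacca
Socs3, chr11:117969317-117969616, minus strand: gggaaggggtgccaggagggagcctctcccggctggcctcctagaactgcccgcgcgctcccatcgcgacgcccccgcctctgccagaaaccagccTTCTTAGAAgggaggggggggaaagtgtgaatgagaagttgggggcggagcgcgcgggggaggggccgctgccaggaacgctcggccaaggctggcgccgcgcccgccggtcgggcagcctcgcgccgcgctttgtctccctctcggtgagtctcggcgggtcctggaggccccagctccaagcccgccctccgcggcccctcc

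All 10 listed genes had a region in the table, 13 in total. The STAT element occurred in 1 of the 13, in Socs3 at 154 bases before the start, and in 8.3% of all 32851 regions of this length. GATAA, which is short and frequent, occurred in 4 of the 13 and in 25.4% of all regions. In Lifr it began 33 bases into the transcript of the first start and 172 bases before the second, in Il6 55 bases before the start, and in Il6ra 245 bases before it. TGTTCT occurred in 1 of the 13, that of Stat3, and in 19.0% of all regions. The Il6st region held none of these letters. A match describes letters only, since no binding was measured in these samples.

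Among the ligands Il6 changed and Lif and Il11 did not pass the test. Il6, a cytokine of leukocytes, stroma and other cells, had intensities of 18.6, 11.1 and 19.0 on the oil arrays and 67.8, 73.9 and 44.8 on the P4 arrays. Every P4 array was above every oil array, and the lowest value of all 6 was that of oil replicate 2. The log2 difference was 1.27 ± 0.17 (SE, n = 3 per group; limma adjusted p 0.00391), a 2.41-fold rise on the log2(intensity + 16) scale. The size depended on the added number: the difference was 1.88 with 1 in place of 16 and 0.75 with 50, called in both fits. The single Il6 probe set ranked at percentile 6.93 of all genes by mean.

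As a gauge of dim probe sets, 14 measured genes typical of other organs, such as retina, lens and testis, had mean intensities from 13.2 to 233. The median of their values on single arrays was 63. The Il6 mean lay within that range of means in both groups, and the file holds no detection calls. The call was kept without any 1 array, at a limma adjusted p up to 0.0213, but was lost when both arrays numbered 2 were left out (log2 difference 1.04, limma adjusted p 0.0804). That fit kept 4 arrays, and only 171 of all 18193 genes passed in it. Macrophage markers had 0 of 9 called, with summed intensities of 4062 to 9944 after oil and 3985 to 10976 after P4. Granulocyte markers likewise had 0 of 9 called, where 13% of all genes passed. The median log2 difference was 0.40 over the granulocyte markers and 0.07 over the macrophage markers. By limma at an unadjusted p under 0.05 neither list had a member. With the replicate block, where 20.9% of all genes passed, 1 macrophage marker was higher and no granulocyte marker passed. It was Cd14, a receptor for bacterial lipopolysaccharide, with 1038, 876 and 1781 after oil and 1464, 1177 and 3209 after P4 (0.58, limma adjusted p 0.00559 with the block and 0.408 without). The part of these cells in the Il6 difference was not tested.

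Lif, the ligand of implantation, had intensities of 65.7, 65.4 and 66.8 after oil and 79.4, 55.1 and 86.5 after P4. The oil arrays were nearly equal and the P4 arrays lay on both sides of them. The log2 difference was 0.11 with a 95% interval from -0.21 to 0.44 (limma adjusted p 0.702). A second Lif probe set had a difference of -0.09. Il11, a ligand of decidual maturation, ranged from 51.2 to 63.5 after oil and from 53.0 to 62.1 after P4. Its difference was 0.04 with an interval from -0.20 to 0.27 (limma adjusted p 0.886). The Lif and Il11 intensities were also within the range of the gauge genes, so a low level of either transcript was not resolved here.

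Of the measured receptor chains, Lifr had the largest change. Lifr, the chain that binds LIF, had intensities of 2570, 2881 and 2427 after oil and 1522, 972 and 1230 after P4. The highest P4 array was well below the lowest oil array. The log2 difference was -1.09 ± 0.15 (SE; limma adjusted p 0.00483), so that oil was 2.13-fold above P4. Taken by replicate number, P4 minus oil was -0.75, -1.55 and -0.97. The call was kept without any 1 array (limma adjusted p up to 0.0305) and lost without both arrays numbered 2 (-0.86, limma adjusted p 0.064). In that last fit only 171 of all genes passed.

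The 3 Lifr probe sets were all lower after P4 by sign, but only the brightest was called over all 34945 probe sets, of which 10.1% passed. The second had intensities of 67.6, 95.4 and 88.6 after oil and 64.7, 63.0 and 68.1 after P4, a difference of -0.29 ± 0.12 with overlap between the groups (limma adjusted p 0.184). The third, at 35.1 to 45.6 after oil and 36.2 to 41.5 after P4, had a difference of -0.07 ± 0.10. The mean over all 3 gave -0.48 (limma adjusted p 0.0177). The annotation does not say which transcripts each probe set reads, and the intensities of different probe sets cannot be compared as levels.

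Il6st, the shared signalling chain, had intensities of 4587, 4179 and 4563 after oil and 3378, 3821 and 3129 after P4. The groups did not overlap, and P4 replicate 2 came closest to oil. The log2 difference was -0.37 ± 0.09 (SE; limma adjusted p 0.0319), with oil 1.29-fold above P4. With 1 array left out the difference stayed between -0.45 and -0.30. The call was near the threshold, and it was lost without oil replicate 1, 2 or 3, without P4 replicate 1 or 3 (limma adjusted p up to 0.12), and without both arrays numbered 2 (-0.49, 0.0809). Averaging all Il6st probe sets (-0.33, 0.0882) or scaling each array to its hybridisation controls (-0.24, 0.19) also ended it. Those spiked controls were 0.127 log2 lower on the P4 arrays, and after that scaling all genes had a median difference of 0.10.

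All 4 Il6st probe sets had a negative difference, from -0.11 to -0.55. The 2 of intermediate intensity, whose groups overlapped, read 689, 691 and 546 after oil against 565, 564 and 428 after P4, and 175, 194 and 215 against 106, 181 and 106. In both, each P4 array was below the oil array of the same number. They did not pass without the replicate number in the fit (limma adjusted p 0.238 and 0.104) and passed with it as a block (0.0276 and 0.0327). The dimmest probe set did not pass in either fit (0.667 and 0.58).

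Il6ra, the chain for interleukin 6, had intensities of 592, 543 and 364 after oil and 507, 520 and 527 after P4. Oil replicate 3 stood below the other 5 arrays, which lay close together. The log2 difference was 0.08 with an interval from -0.30 to 0.46 (limma adjusted p 0.837), and it changed sign without oil replicate 3 (-0.13). A second Il6ra probe set had a difference of -0.05. Osmr, the oncostatin M chain, had intensities of 350, 391 and 731 after oil and 249, 478 and 491 after P4. The groups overlapped, with a difference of -0.25 ± 0.32 (SE; limma adjusted p 0.721). Without oil replicate 3 or P4 replicate 1 the sign turned (0.07 and 0.06).

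**Figure D2:**
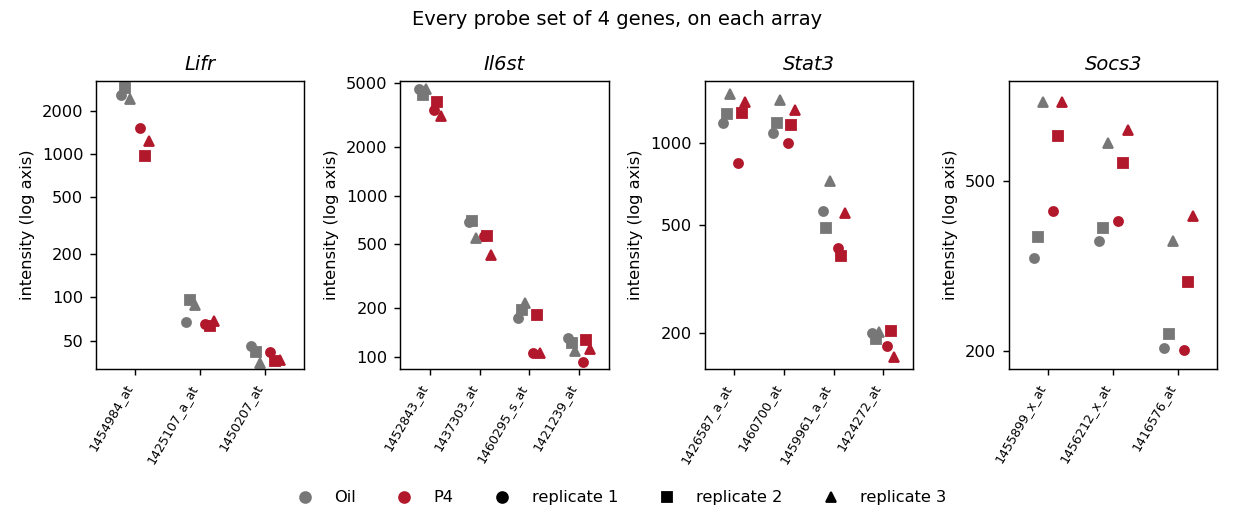
Intensity (log axis) of every probe set of Lifr, Il6st, Stat3 and Socs3 on the oil (grey) and P4 (red) arrays, with symbols for the replicate number and probe sets ordered by mean. The P4 points of the brightest Lifr and Il6st probe sets lie below the oil points, and those of Socs3 interleave with oil in all 3 probe sets.

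Some markers of several cell types passed the test beside Lifr and Il6st, where 13% of all genes passed, or 20.9% with the block. The part of these cells in the Lifr and Il6st decreases was not tested. Of 10 stroma markers 2 rose, Hoxa11 (0.89) and Hand2 (0.50), both factors of the uterine stroma, and 1 fell, with sums of 52760 to 58649 after oil and 49523 to 61095 after P4. The marker that fell was Lum, a matrix proteoglycan, with 3582, 4285 and 4693 after oil and 1745, 2858 and 2222 after P4 (-0.90 ± 0.18 (SE); limma adjusted p 0.0156). The Lum groups did not overlap. With the block Col1a1 (0.57) and Col3a1 (0.36), collagens, were also higher.

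Adipocyte markers had 0 genes higher and 1 of 6 lower, Lipe, a lipase (-0.34), with summed intensities of 621 to 885 after oil and 475 to 625 after P4. With the block 3 of the 6 were lower, Lipe with Adipoq and Retn, hormones of fat cells. Adipoq had 363, 349 and 187 after oil and 92.0, 200.4 and 52.1 after P4 (-1.38, limma adjusted p 0.0672 without the block and 0.00273 with it). Its groups overlapped, and within each number the P4 array was lower. Retn differed by -0.49 (0.122 without the block and 0.00902 with it). Endothelial markers had 0 higher and 1 of 8 lower, Tek, the angiopoietin receptor (-0.38), with sums of 6075 to 7105 after oil and 5790 to 5959 after P4. Pecam1, an adhesion molecule, was also lower with the block (-0.34).

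Of 7 mesothelium, ovary and oviduct markers 0 rose and 1 fell, Inha, an inhibin chain (-0.58; limma adjusted p 0.0141), with sums of 777 to 837 after oil and 719 to 836 after P4. Epithelial markers had 1 of 14 higher, Ehf, an epithelial transcription factor (0.47), and 0 lower, with overlapping sums of 16362 to 20504 and 11421 to 19098. With the block 4 epithelial markers were lower, Krt18, Krt19, Epcam and Elf3, with differences of -0.62, -0.34, -0.40 and -0.65. Ehf was again the 1 marker higher in that fit, and the median log2 difference of the 14 was -0.01.

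Several of these marker calls were near the threshold. Lipe lost its call without any 1 array, Tek without any 1 except oil replicate 1, Ehf without oil replicate 1 or 2 or P4 replicate 1 or 3, Inha without oil or P4 replicate 2, and Lum without oil replicate 2 (limma adjusted p up to 0.17). The differences with 1 array left out ran from -0.39 to -0.31 for Lipe, -0.46 to -0.31 for Tek, 0.40 to 0.58 for Ehf, -0.65 to -0.51 for Inha and -1.07 to -0.72 for Lum. Scaling to the hybridisation controls also ended the calls of Lipe (-0.23) and Tek (-0.26). These markers are named after their values were seen. No value in the file was 0, the lowest being 1.29.

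Stat3 and Socs3 did not pass the test, and the spread within each group was shared by replicate number. Stat3, the transcription factor of the pathway, had intensities of 1189, 1278 and 1508 after oil and 841, 1287 and 1419 after P4. P4 replicate 1 lay below the other 5 arrays. The log2 difference was -0.19 with an interval from -0.63 to 0.25 (limma adjusted p 0.616), and it was 0.04 without P4 replicate 1. All 4 Stat3 probe sets had a negative sign. One of them, at 564, 489 and 728 after oil and 411, 383 and 551 after P4, passed only with the replicate block (-0.39, limma adjusted p 0.0103, against 0.217 without the block).

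Socs3, the feedback inhibitor, had intensities of 331, 370 and 763 after oil and 426, 636 and 763 after P4. On replicate 3 of both groups Socs3 was near the same level, while replicates 1 and 2 were higher after P4. By replicate number P4 minus oil was 0.35, 0.76 and -0.0003 on the log2 scale. The difference was 0.37 ± 0.32 (SE) with an interval from -0.37 to 1.11 (limma adjusted p 0.552). With the replicate block its error shrank to 0.13, and it still missed the threshold (limma adjusted p 0.1). With 1 array left out the difference ran from 0.15, without oil replicate 1, to 0.73, without oil replicate 3 (limma adjusted p 0.884 and 0.0891). It was 0.23 without oil replicate 2, 0.60 without P4 replicate 1 and 0.19 without P4 replicate 3. The other Socs3 probe sets had differences of 0.24 and 0.18. The last of these is the only Socs3 probe set not marked as open to cross-hybridisation by its name.

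The oil and P4 arrays numbered 3 were each the highest of their group for Lif, Osmr, Stat3 and Socs3, 4 of the 9 members, against 23.2% of all genes. Granulocyte sums were highest on the same arrays, and macrophage sums as well; their part in the Socs3, Osmr and Stat3 levels was not tested. The block with the replicate number reduced the standard error from 0.32 to 0.16 for Osmr and from 0.19 to 0.10 for Stat3. For Lifr the change was from 0.15 to 0.14 and for Il6st it stayed at 0.09.

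**Figure D3:**
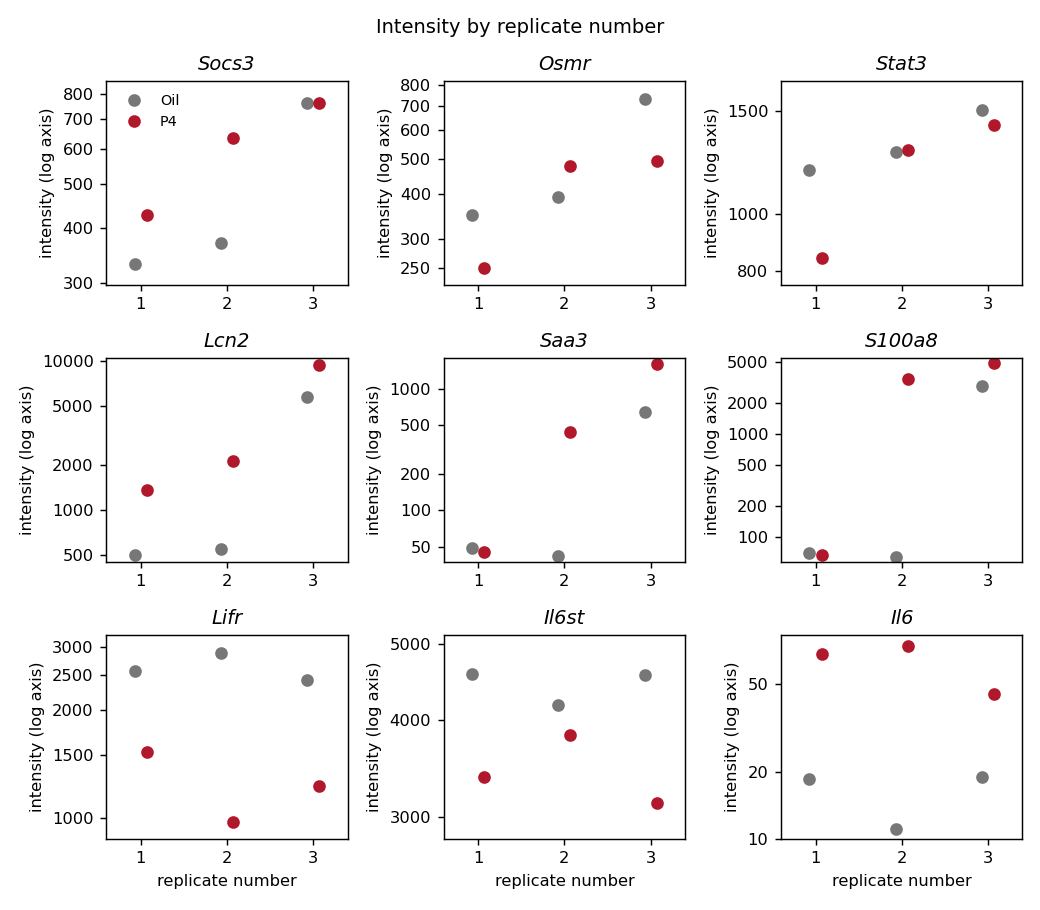
Intensity (log axis) by replicate number for 6 members and for Lcn2, Saa3 and S100a8 on the oil (grey) and P4 (red) arrays. Socs3, Osmr and Stat3 were highest on replicate 3 of each group, as were Lcn2, Saa3 and S100a8, whereas Lifr, Il6st and Il6 separate by treatment.

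Other genes of the pathway gave few calls. Of 5 measured other ligands 0 rose and 0 fell, with a median log2 difference of -0.02, and at an unadjusted limma p under 0.05 only Clcf1 passed. Clcf1, a ligand of the CNTF receptor, had a mean intensity of 537 ± 41.9 (SD, n = 3) after oil and 348 ± 107 after P4, without overlap. Its difference of -0.64 ± 0.20 (SE) passed only with the replicate block (limma adjusted p 0.0731 without and 0.0161 with it). Ctf1, cardiotrophin, had 238 ± 24.0 after oil and 242 ± 43.8 after P4. Of 3 measured other receptor chains none passed in either fit, where 13% of all genes passed, or 20.9% with the block. None had an unadjusted limma p under 0.05. Cntfr had 156 ± 7.83 after oil and 153 ± 6.91 after P4, and Il27ra 127 ± 16.1 and 141 ± 24.3.

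Of 9 measured Janus kinases and other STATs 0 rose and 0 fell by limma, where 6.08% of all genes rose and 6.94% fell. The median log2 difference of the 9 was -0.08, and 3 (Jak2, Tyk2 and Stat4) had an unadjusted limma p under 0.05. In the fit with the replicate block 1 rose and 1 fell, where 20.9% of all genes passed. Jak2, a kinase that works with the shared chain, had intensities of 2418, 2146 and 2028 after oil and 1725, 1254 and 1866 after P4. The groups did not overlap, and the difference was -0.46 ± 0.15 (SE; limma adjusted p 0.087, or 0.0312 with the block). Stat4 passed with the block as higher (0.50, limma adjusted p 0.0134, against 0.143 without), and is named after its value was seen. Jak1, the other main kinase of the pathway, had 1171 ± 91.2 (SD, n = 3) and 1121 ± 238.

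Among 15 regulators of the SOCS, PIAS and phosphatase families 1 rose and 0 fell, where 6.08% of all genes rose and 6.94% fell. The median log2 difference of the 15 was 0.09. The gene that rose was Socs7, a less studied SOCS protein. Its intensities were 930, 855 and 785 after oil and 2259, 1791 and 1420 after P4. Every P4 array was well above every oil array, and the difference was 1.05 ± 0.16 (SE; limma adjusted p 0.00602). The call was kept without any 1 array and lost without both arrays numbered 2 (limma adjusted p 0.122), where only 171 of all genes passed. The mean of the 4 Socs7 probe sets gave 0.52, still called. With the replicate block 4 of the 15 rose, Socs7, Socs6, Ptpn1 and Ptpn2, and 0 fell, where 20.9% of all genes passed in either direction. Socs6, Ptpn1 and Ptpn2 are named after their values were seen, with differences of 0.30, 0.29 and 0.33. Ptpn1 and Ptpn2 encode phosphatases that act on Janus kinases and STAT proteins.

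**Figure D4:**
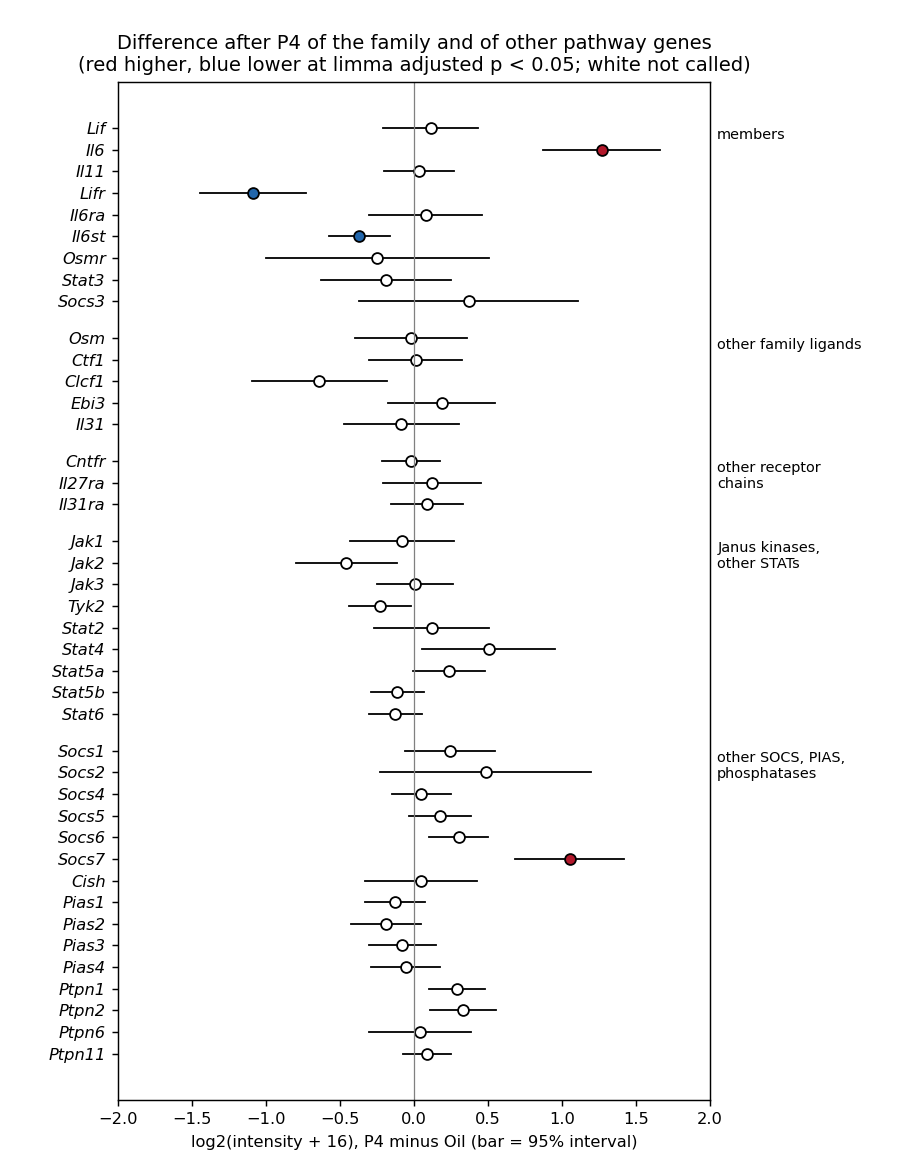
Difference in log2(intensity + 16), P4 minus oil, with 95% intervals for the 9 members and 32 other pathway genes. Filled points passed a limma adjusted p of 0.05: Il6 and Socs7 higher, Lifr and Il6st lower, and the others not called.

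Genes known to be induced through STAT3 moved in both directions. Of 30 measured 3 rose and 3 fell, where 6.08% of all genes rose and 6.94% fell. The median log2 difference of the 30 was 0.24. Bcl2l1, which protects from cell death, went from 561 ± 28.4 (SD, n = 3) to 989 ± 237, a difference of 0.78 ± 0.15 (SE; limma adjusted p 0.0153). Hif1a, the hypoxia factor, went from 2566 ± 150 to 4361 ± 729 (0.75 ± 0.12; limma adjusted p 0.0071). Pim3, a kinase named after its value was seen, also rose (0.50). Pim1, a related kinase, fell from 902 ± 78.7 to 577 ± 95.9 (-0.64 ± 0.13; limma adjusted p 0.0155). Bcl6, a repressor, fell from 782 ± 128 to 497 ± 12.8 (-0.62 ± 0.12; limma adjusted p 0.0129). Ccnd1, a cyclin, fell by 0.31 and is likewise named after its value was seen.

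These STAT3-linked counts were 7 and 6 with the replicate block, where 20.9% of all genes passed in either direction. They were 1 and 1 without oil replicate 2. Without both arrays numbered 2 they were 0 and 0, where 171 of all genes passed. Bcl2l1 lost its call without oil replicate 2, Pim1 without oil or P4 replicate 2 and Bcl6 without P4 replicate 2 (limma adjusted p up to 0.0674). The mean of all Bcl2l1 probe sets gave 0.35 (limma adjusted p 0.0377). Pim3 lost its call without any 1 array except P4 replicate 2, and Ccnd1 without any 1 except P4 replicate 1 (limma adjusted p up to 0.128). In 17 of the 30 genes both arrays numbered 3 were the highest of their group, against 23.2% of all genes. Lcn2, an iron-binding defence protein chosen after its values were seen, showed this with 502, 549 and 5800 after oil and 1378, 2135 and 9378 after P4. Saa3, an acute phase protein chosen in the same way, had 49.4, 42.2 and 647 after oil and 45.9, 436 and 1585 after P4. Neither passed without the block (limma adjusted p 0.477 and 0.579), and Lcn2 passed with it (0.00388). S100a8, a granulocyte gene, had 70.3, 64.3 and 2950 after oil and 67.6, 3408 and 4860 after P4. Within each number Lcn2 was higher after P4, while S100a8 was not on replicate 1.

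Of 23 measured genes of implantation and the decidual response 5 rose and 0 fell, where 6.08% of all genes rose and 6.94% fell. This list, like the others above, was chosen with earlier results of these data known. Its count beside the share of all genes is therefore description only. The median log2 difference of the 23 was 0.11. The genes that rose were Hdc, Ihh, Hoxa11, Hoxa10 and Hand2, the last of which falls outside the naming rule. Hoxa11 and Hand2 are also counted among the stroma markers above. Differences ran from 0.50 for Hand2, a stromal factor, to 1.91 for Hdc, the enzyme that makes histamine. Hand2 lost its call without oil replicate 2 or 3 (limma adjusted p up to 0.0707). With the replicate block 7 rose and 3 fell, where 20.9% of all genes passed in either direction. The 7 included Hbegf (0.47) and Acod1 (1.69), both named after their values were seen. Their limma adjusted p was 0.159 and 0.422 without the block, and 0.0114 and 0.00556 with it. The 3 that fell in that fit were Igfbp3, a binding protein of insulin-like growth factors (-0.94), Coch, a matrix protein (-0.71), and Muc1, a mucin of the epithelial surface (-0.82). All 3 are named after their values were seen, and their limma adjusted p without the block ran from 0.0963 to 0.526.

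The genes most like Lifr over the 6 arrays, by Pearson correlation of log2 values and with the other members left out, were Mxd4 (0.998), Rbm24 (0.997) and Fam241b (0.997). Their own differences were -0.58, -0.59 and -0.77. Those most like Il6 were Hdlbp (0.997), Arel1 (0.997) and Slc30a5 (0.995), with differences of 0.35, 0.34 and 0.43. The 6 points fall into the 2 treatment groups and share the arrays, so these values describe a likeness of pattern and carry no test.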

How the data were processed

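The deposited table holds 1 linear intensity per probe set for 6 mouse expression arrays; how the authors summarised and scaled these intensities has not been given in the sources used here. Since array medians differed by 0.0591 log2, no further normalization was applied. Probe sets were named from the platform annotation: 34945 had 1 gene symbol, 932 had several and 9160 none, beside 64 controls. Of the first, 34741 matched a gene ID of RefSeq (assembly GRCm38.p6), which changed 0 symbols.

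P4 was compared with oil on log2(intensity + 16) with limma (version 3.58.1; R 4.3.3; functions lmFit and eBayes, trended prior), without covariates, over 18193 genes with Benjamini-Hochberg adjustment and a threshold of 0.05. The method was tested on simulated data. The number of arrays limits the precision. The replicate numbers were taken to pair the arrays because same-numbered arrays deviated from their group means together (correlations 0.53, 0.13 and 0.64, each above 0.1). The best match of oil replicate 2, however, was P4 replicate 1 (0.29). The pairing is seen in the data only, and the labels state none. The block was thus chosen on the values it was then fitted to, and results that passed only with it carry that limit. Alternatives concerned normalization, pseudocount, dim genes, probe set choice, moderation, the replicate block and arrays left out. The members and gene lists were chosen with earlier results of these data known. Named were all members, up to 4 called genes per pathway list by size, the 2 brightest of lists without calls, and the 3 genes most like each of the 2 most changed members. Figures used matplotlib 3.10.9.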

Additional observations from a re-analysis of the deposited data

How the results depend on the processing

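Genes called over the whole array, 2368 as reported, numbered 3801 with the replicate block, 171 without both arrays numbered 2, and 993 to 2302 with 1 array left out. Called members that were higher, 1 as reported, numbered 0 without the dimmest 50% of genes (Il6 is among those) and 0 without both arrays numbered 2, and 1 in every fit with 1 array left out. Called members that were lower, 2 as reported, numbered 1 with scaling to the hybridisation controls, 1 with the mean of all probe sets, 0 without both arrays numbered 2, and 1 to 2 with 1 array left out. Without both arrays numbered 2 the log2 differences were 1.04 for Il6, -0.86 for Lifr and -0.49 for Il6st, none of them called, with 4 arrays left. Il6st was -0.24 with scaling to the controls and -0.33 with the mean of its probe sets, and -0.45 to -0.30 with 1 array left out. Uncalled members that changed sign were Il11 (-0.023 to 0.098 with 1 array left out, -0.0027 without both arrays numbered 2), Il6ra (-0.13 to 0.21), Osmr (-0.44 to 0.070) and Stat3 (-0.34 to 0.035). Of the 23 member probe sets 3 were called as reported and 6 with the replicate block. Apart from the other probe sets, the block changed no member's call. The cause of these changes was not tested. Quantile normalization, pseudocounts of 1 or 50, probe sets without s or x names and moderation without trend left the 3 member calls in place. Il6, Lif and Il11 are near the intensities of genes of other organs, which limits what can be said of their levels.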
